A study of Mus musculus with 24 samples.

Results

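Day 5 GFP-positive and GFP-negative cells of optic vesicle (OV) organoids were compared: 3 RNA-seq libraries of each gate, chosen by their labels, made 6 of the 24 libraries of the time course. The organoids were grown from the Rx-GFP K/I EB5 line, mouse embryonic stem cells (mESCs) that carry GFP knocked into the Rax locus, so every group shared that allele and the gate followed the activity of the locus itself. The other groups used for reference were unsorted live cells on days 0, 1, 2 and 3 and the same gates on day 4, also with 3 libraries each. On day 0, 4500 cells per organoid were plated in supplemented GMEM with 1.5% knockout serum replacement per the labels, whereas the methods of the study name a growth factor-free medium for the initial organoids, and Matrigel at 2% followed on day 1. For each sample 24 organoids were pooled, dissociated and sorted for live single cells. The methods describe the samples of days 4 and 5 as then split by GFP, so both gates may come from the same pools. They were compared here without pairing. All groups therefore came from a single reporter line with no untagged control, the GFP-negative gate also took cells with low GFP, and within a gate any cell types were measured as a mixture. The labels do not say whether replicates came from separate differentiations, whereas the methods call them biological triplicates.

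Rax, Pax6, Lhx2, Six3 and Six6 are among the transcription factors whose domains overlap at the front of the neural plate. Their shared territory is the eye field, although several of them are also used in neighbouring forebrain. The eye field evaginates as the OVs. Neural retina, retinal pigment epithelium, optic stalk and dorsal territories are then laid down there by further factors, among them Mitf, Vax1, Vax2, Pax2 and Tbx5. Aggregates of mESCs can also hold cells that remain pluripotent, or that follow the primitive streak into mesoderm and endoderm, and such cells do not use the Rax locus. To describe which lineages the genes of each gate belong to, 26 gene lists with 325 distinct genes were used, from eye territories to extraembryonic tissues. All 325 were in the table and 310 passed the filter on low values, which required 10 normalized counts in 3 of the 24 libraries. The normalized count is the authors' estimate of reads per gene after division by a size factor for each library, so levels of one gene can be compared between libraries, but levels of different genes cannot be ranked because gene length is not removed. The 6 libraries summed to between 39849111 and 44139351 normalized counts, and the rank correlation between replicates of a gate was 0.985 to 0.993. One library elsewhere in the fit, replicate 1 of day 0, stood apart from its replicates, with correlations of 0.953 and 0.954.

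The difference between the gates lay mostly on the GFP-negative side. Of 21005 genes tested, 84 (0.400%) were called higher in GFP-positive cells and 968 (4.61%) were called lower, which required an adjusted p below 0.001 together with a difference of more than 1.5 in size on the log2(normalized count + 1) scale. This is the scale of every difference below, it is given as GFP-positive minus GFP-negative, and because of the added 1 it understates the change of genes with low values. The 84 genes included 74 protein-coding genes and the 968 included 868. In all 1052 the libraries of the 2 gates did not overlap, as was the case for 36.8% of all genes tested. The median difference over all genes was -0.0017. Centring each library on its median moved that median by 0.17, quantile normalization moved the typical gene by 0.18, and the calls were then 108 higher with 816 lower and 106 higher with 569 lower.

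**Figure D1:**
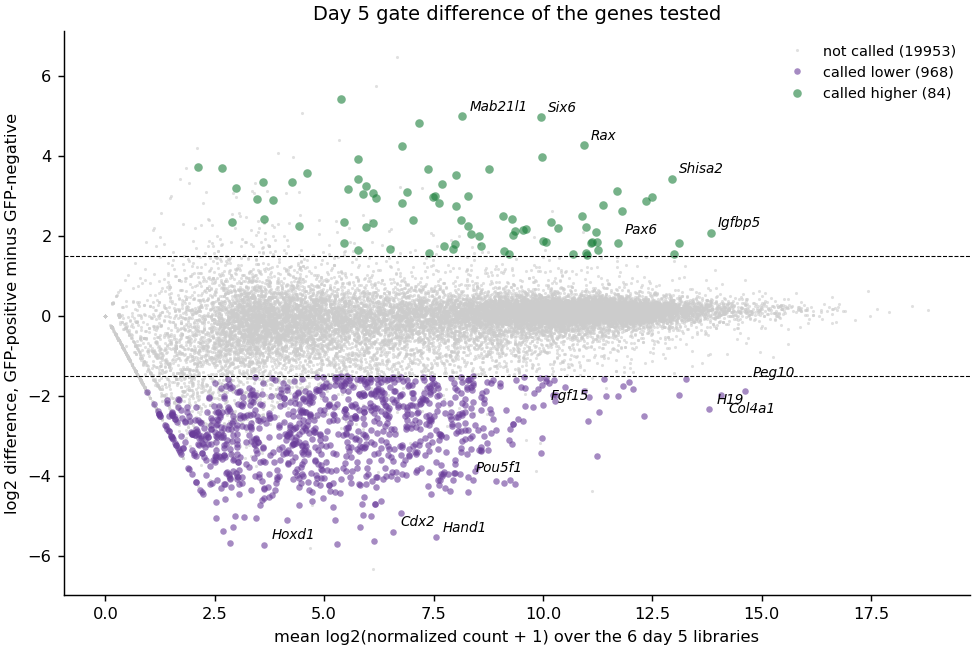
Each point is 1 of the 21005 genes tested, with its mean log2(normalized count + 1) over the 6 day 5 libraries on the x axis and its log2 difference between the gates on the y axis, and dashed lines mark differences of 1.5. The 968 genes called lower in GFP-positive cells lie below the lower dashed line, with Hoxd1 lowest at -5.72, and the 84 called higher reach 5.42, at A830092H15Rik.

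The genes of the 2 directions differed in level. The 968 genes had a median level of 94.4 normalized counts in GFP-negative cells and 12.4 in GFP-positive cells, and 449 of them averaged under 10 in GFP-positive cells, which is near the limit of the filter. The 84 genes had a median of 697 in GFP-positive cells and 121 in GFP-negative cells. For a typical gene of the 968 the GFP-positive mean was 12.2% of the GFP-negative mean (quartiles 6.76% and 21.0%), and for a typical gene of the 84 the GFP-negative mean was 18.1% of the GFP-positive mean. In these bulk samples fewer cells of a type and less RNA per cell cannot be told apart. A further 86 genes higher and 633 genes lower differed by more than 1.5 without overlap of replicates but missed the adjusted p, 62 and 496 of them with an adjusted p under 0.05.

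The 6 libraries matched their gate labels at the eye field genes. Rax itself, a homeobox gene that lies on chromosome 18, chose the gate and is only a check of the labels. It measured 8827, 8075 and 8921 normalized counts in GFP-positive replicates 1, 2 and 3 and 517, 412 and 413 in GFP-negative replicates 1, 2 and 3, so that the GFP-negative mean was 5.20% of the GFP-positive mean. All values below are given in this order of gates and replicates. Of the other 8 eye field genes tested, 4 were called higher and 1 lower, and the median difference was 1.51. Lhx2, a LIM-homeodomain factor needed for OV formation (chr2:38339281-38369733 in mm10, plus strand), measured 16154, 15246 and 16488 in GFP-positive and 1989, 2240.2 and 1931 in GFP-negative libraries, and differed by 2.96 (SE 0.30, adjusted p = 1.97e-07), limma with Benjamini-Hochberg adjustment as for every adjusted p. Six3, which keeps Wnt signalling low in the anterior plate, measured 9559, 8461 and 8811 against 1393, 1553 and 1401 and differed by 2.62 (SE 0.25, adjusted p = 1.01e-07). Its relative Six6 (chr12:72939892-72944899, plus strand), a factor of retinal progenitor growth, had the widest difference of the list, 4.97 (SE 0.46, adjusted p = 5.89e-08), from 5379, 4904 and 6366 against 138, 175 and 222. The lowest GFP-positive library of each of these genes was several times the highest GFP-negative library. Pax6, the paired-box factor required in retina and lens, was high in both gates, with 15803, 20619 and 14217 in GFP-positive cells and 4949, 4713 and 4385 in GFP-negative cells. Its difference was 1.83 (SE 0.24, adjusted p = 7.64e-06).

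The remaining eye field genes went less far or the other way. Nr2e1, Hesx1 and Otx2 had higher values in all 3 GFP-positive libraries than in any GFP-negative library, with differences of 1.09, 1.18 and 0.70, but none passed both thresholds. Otx2, a factor of the whole anterior neural plate, measured 16363, 20505 and 16989.5 against 10761, 11262 and 11081. Tbx3, which is also a gene of the pluripotency network, was lower in GFP-positive cells, at 104, 147 and 152 against 744, 660.2 and 451, with a difference of -2.18 (SE 0.39, adjusted p = 2.70e-04). Its call was lost without GFP-positive replicate 1 or 2 or without GFP-negative replicate 1 or 2, and its difference lay between -2.39 and -2.01 over the 6 omissions.

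**Figure D2:**
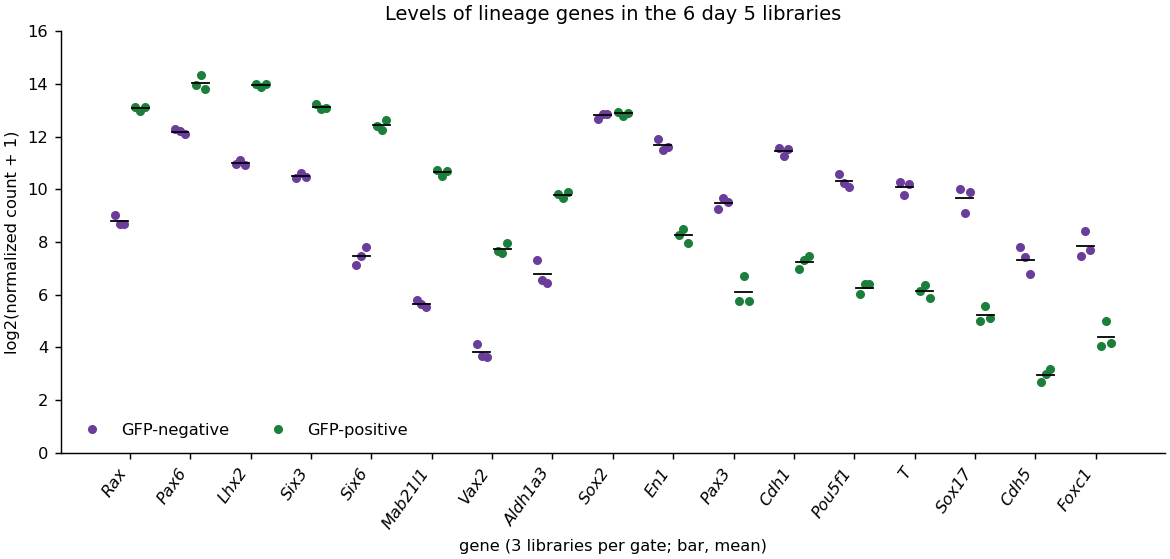
Levels of 17 genes in the 6 day 5 libraries, as log2(normalized count + 1) on the y axis, with a point for each library (purple, GFP-negative; green, GFP-positive) and a bar at the mean of each gate. The gates are separated at every gene shown except Sox2, whose libraries lie between 6471 and 7888 normalized counts.

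Of 11 neural retina genes 3 were called higher and 1 lower, with a median of 0.89. Mab21l1, which is needed for the growth of the retinal primordium, rose most of the list: it measured 1680.5, 1469 and 1658 in GFP-positive cells and 54.8, 48.9 and 45.2 in GFP-negative cells, a difference of 4.99 (SE 0.43, adjusted p = 2.56e-08). Mab21l2 was called as well, at 1.85. Vsx1 lay between 4.02 and 12.4 over the 6 libraries, and its gates overlapped. Fgf15, a secreted growth factor of the early neural retina and of other brain regions, went the other way, at 472, 448 and 505 against 2591, 1983 and 2172, with a difference of -2.23 (SE 0.14, adjusted p = 2.10e-10). The secreted Wnt antagonists Sfrp1 and Sfrp2 were higher in all 3 GFP-positive libraries but did not reach the fold threshold, at 0.89 and 0.75. Atoh7, which starts retinal neurogenesis, did not pass the filter, with at most 17.7 normalized counts.

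The pigment epithelium list was split. Of its 11 genes tested 2 were called higher and 1 lower, and the median was 0.18. Mitf, the transcription factor that opens the pigment cell programme, measured 594, 657 and 803 in GFP-positive and 115, 141 and 176 in GFP-negative libraries, a difference of 2.25 (SE 0.22, adjusted p = 1.22e-07), and on day 4 it had been at 83.05 ± 2.14 and 107 ± 7.73 (SD, n = 3). Trpm1, an ion channel gene that Mitf can activate, measured 123, 229 and 176 against 15.8, 23.5 and 20.4. Its difference of 3.05 (SE 0.57, adjusted p = 4.96e-04) was no longer called when any 1 of the 6 libraries was left out, with differences of 2.84 to 3.29 and adjusted p up to 0.00435, so that the list then had 1 gene called higher, as it did with the replicate block. Melanin genes were not called: Tyr, the enzyme that starts melanin synthesis, lay between 1.90 and 8.99 in all 6 libraries, and the retinoid isomerase gene Rpe65 was below the filter with at most 2.82. Dct, another melanin enzyme gene below the filter, measured 15.5, 24.6 and 9.94 against 1.92, 0 and 0.821 without overlap. Otx1, an early regional factor, measured 2169, 2687 and 2052 against 5863, 6116 and 6249 and was not called (adjusted p = 0.00396). Tfec, a relative of Mitf, fell from 142, 84.1 and 139.5 in GFP-negative cells to 1.72, 9.07 and 9.78 in GFP-positive cells, a difference of -4.17 (SE 0.51, adjusted p = 2.86e-06).

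Rax aside, Mitf was the called list gene of the GFP-positive side with the widest difference whose promoter held the letters TAATTA. Promoters were read from RefSeq for GRCm38.p6. These letters are the core that homeodomain proteins such as Rax and Lhx2 bind. The Mitf sequence is printed because several of the genes higher in this gate encode proteins of that family. The run covers the 250 bases before 1 of the 3 Mitf starts listed, chr6:97991533-97991782 on the plus strand, with the match in capitals.
Mitf: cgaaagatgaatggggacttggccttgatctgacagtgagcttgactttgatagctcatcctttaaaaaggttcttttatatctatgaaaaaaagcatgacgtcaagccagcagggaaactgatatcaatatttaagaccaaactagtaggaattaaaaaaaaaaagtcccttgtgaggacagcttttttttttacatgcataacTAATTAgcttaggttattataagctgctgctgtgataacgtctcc
The single match begins 45 bases before the start. TAATTA reads the same on both strands. It was found in 6 of 78 promoters (7.69%) of the 58 genes called higher that had an entry, in 32 of 810 (3.95%) of those of the 657 genes called lower that had one, and in 1590 of all 32851 promoters (4.84%), each searched over the 250 bases before the start. A match is a description of letters and not of binding.

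In the optic stalk and ventral OV list 4 of 7 genes were called higher, with a median of 2.23. Vax2, the homeobox gene of the ventral retina, measured 201, 189 and 248 against 16.4, 11.9 and 11.5, a difference of 3.91 (SE 0.42, adjusted p = 5.84e-07). Its relative Vax1 measured 217, 138 and 191 against 14.9, 18.96 and 13.99 and differed by 3.42 (SE 0.64, adjusted p = 4.76e-04). Aldh1a3, an enzyme that makes retinoic acid in the ventral retina, measured 893, 808 and 944 against 160.4, 92.5 and 85.96 and differed by 3.01 (SE 0.30, adjusted p = 1.64e-07). Pax2, the paired-box gene of the stalk and ventral cup, was high in both gates, at 4613, 4363 and 4159.6 against 1055, 1039 and 739, and differed by 2.23 (SE 0.37, adjusted p = 1.41e-04). In these 4 genes every GFP-positive library was above every GFP-negative library, where 36.8% of all genes tested did not overlap, in either direction. In the other 3 every GFP-positive library was below, and none was called: Cyp1b1, a retinoid and steroid hydroxylase gene, differed by -2.25 (adjusted p = 0.0654), and Ntn1 and Smoc1 by -0.77 and -0.35. The calls of Vax1 and Pax2 sat close to the adjusted p threshold: Vax1 lost its call without any 1 of the 6 libraries (differences 3.28 to 3.61, adjusted p up to 0.00356), and Pax2 lost it without GFP-positive replicate 1 or GFP-negative replicate 3 (differences 2.06 to 2.32 over the 6 omissions, adjusted p up to 0.00157), which left 2 of 7 genes called.

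Of the dorsal OV list 2 of 6 genes were called higher and the median was 0.99. Tbx2, a T-box repressor of the OV and dorsal retina (chr11:85832551-85841948, plus strand), measured 449.6, 555 and 586 in GFP-positive libraries and 89.3, 74.8 and 40.4 in GFP-negative libraries, a difference of 3.01 (SE 0.44, adjusted p = 2.81e-05). Efnb2, which encodes a dorsal ephrin ligand, was high in both gates, at 13692, 13911 and 14039 against 4300.3, 4980.4 and 5081. It differed by 1.54 (SE 0.15, adjusted p = 2.13e-07) and fell just under the fold threshold, at 1.46, without GFP-negative replicate 1. After quantile normalization 1 gene of the list was called. The dorsal determinants Tbx5 and Bmp4 overlapped between gates, at 37.5, 63.5 and 38.9 against 32.2, 40.3 and 19.03 for Tbx5 and 1569.5, 1383 and 1331 against 1203, 1355 and 688 for Bmp4, and neither was called.

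Among genes of the neighbouring forebrain the median was -0.76 over 10 telencephalic genes tested, with 1 called in each direction. Emx1 measured 68.03, 64.8 and 92.6 against 46.7, 39.9 and 43.1 and Emx2 1969.8, 3685 and 1481 against 3380.1, 3159.7 and 2812, both uncalled. Bcl11b, a zinc-finger gene of cortical projection neurons, was called lower, at 5.65, 3.59 and 4.45 against 25.9, 16.6 and 20.3 (-1.97). Without GFP-negative replicate 3 a further gene of the list was called lower, 2 in all. After quantile normalization, or with only the day 5 libraries fitted, no gene of the list was called lower. In the hypothalamus and diencephalon list 4 of 12 genes were called lower and the median was -1.48. Shh, the ligand of the ventral midline, measured 28.2, 19.6 and 32.6 against 455, 205 and 332 (-3.53), and Foxb1, a forkhead gene of the mammillary region, 225, 269 and 189 against 1968, 1388 and 1535 (-2.83). Irx3, which marks neural tissue behind the zona limitans, measured 154, 181 and 149.9 against 1505, 1141 and 1099 and differed by -2.93 (SE 0.26, adjusted p = 3.83e-08). Dbx1, a homeobox gene of interneuron precursors, was the last of the 4, at -2.84. Nkx2-1, Nkx2-2 and Nkx2-4, which mark hypothalamic territory, had at most 38.1 normalized counts in any of the 6 libraries and were not called. Only 1 gene of this list stayed called without GFP-negative replicate 1 or without replicate 3 of that gate, and 2 were called without GFP-positive replicate 2 or 3 or with 0.5 added in place of 1.

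Genes of the midbrain, hindbrain and spinal cord were lower in GFP-positive cells almost throughout: 13 of 17 were called lower, and the median was -3.35. The midbrain homeobox gene En1 measured 308, 361 and 249.7 in GFP-positive cells against 3799.9, 2916 and 3101 in GFP-negative cells, a difference of -3.42 (SE 0.32, adjusted p = 9.74e-08). En2, its relative, measured 111, 130.2 and 116 against 1347, 942 and 1439 (-3.35). Pax5, at the same boundary, measured 277, 250.1 and 276 against 2376, 1902 and 2692, but its adjusted p of 0.0098 missed the threshold. Hox genes of the hindbrain were close to 0 in GFP-positive cells. Hoxb2 measured 3.21, 3.48 and 13.2 against 157, 229 and 94.3 (-4.55), and Hoxa2 and Hoxb1 differed by -3.99 and -3.69. The count of the list was not steady: without GFP-negative replicate 2 it was 8 of 17, the lowest of the 6 omissions. After quantile normalization it was also 8, and the cause was not tested. Hoxa2 and Hoxb1 lost their calls without replicate 2 of the GFP-negative gate, among others, with differences of -4.40 to -3.27 and -4.22 to -3.09 over the omissions.

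Of 14 neural progenitor genes 3 were called lower and none higher. In 8 every GFP-positive library was below every GFP-negative library, and in 2 every one was above. Over all genes tested the gates did not overlap for 36.8%, which counts both directions. Sox2 measured 7888, 7115 and 7689 against 6471, 7509.7 and 7520.2, overlapping, with a difference of 0.08 that became -0.01 after quantile normalization. Sox3 measured 6496, 5379 and 6009.9 against 4385, 3820.2 and 3436, and Sox1 1771, 1402 and 1648 against 3499, 3384 and 3898, which had an adjusted p of 0.0309. None of these was called, nor were Zic1 at -1.80 and Hes5 at -1.02, and the median of the list was -0.56. The 3 called, all lower, were the POU factors Pou3f2 (97.97, 117 and 116 against 813, 843 and 1155) and Pou3f3 (177, 193 and 199.9 against 1065, 1052 and 1335) and the lipid-binding protein gene Fabp7 (36.9, 62.8 and 57.9 against 344, 281 and 469). Fabp7 lost its call without GFP-positive replicate 1 or GFP-negative replicate 3, at adjusted p up to 0.00114. Of 16 neuronal genes 6 were called lower and none higher, 10 had every GFP-positive library below every GFP-negative library, and 4 of the 6 called were proneural transcription factors that start neurogenesis. Neurog2 measured 9.11, 7.89 and 9.95 against 104, 89.7 and 84.7, a difference of -3.23 (SE 0.46, adjusted p = 1.94e-05), and Neurod1 7.28, 6.88 and 4.52 against 53.8, 65.8 and 53.5 (-3.04). Neurog1 and Neurod4 differed by -2.90 and -2.68, each lost its call without at least 4 of the 6 libraries in turn, and the list kept 2 genes without GFP-positive replicate 1 and 2 after quantile normalization or centring. It kept 3 without GFP-positive replicate 3 or GFP-negative replicate 2 or 3. The other two called were Isl1 at -1.95 and Gap43 at -1.51, and Stmn2, at -1.13, was not called. Tubb3, Elavl3 and Elavl4 were not called either: Tubb3 measured 1759, 1567 and 1739 against 1402, 1277 and 1227, Elavl3 146, 161 and 145 against 158, 209 and 214 and Elavl4 99.8, 75.9 and 149 against 207, 199 and 176. The median of the neuronal list was -1.01.

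The neural crest list had 8 of 13 genes called lower, with a median of -2.36. Pax3, a gene of the dorsal neural tube and early crest, measured 53.1, 104 and 53.9 in GFP-positive and 603, 805 and 739 in GFP-negative libraries, a difference of -3.39 (SE 0.30, adjusted p = 4.38e-08). The crest factors Sox10 and Foxd3 measured 77.3, 81.6 and 51.6 against 573, 419.6 and 329 and 10.01, 7.88 and 9.95 against 168, 171 and 109, with differences of -2.62 and -3.85. Foxd3 is also a gene of pluripotent cells and had been far higher in unsorted day 3 cells, at 2509.6 ± 165 (SD, n = 3). Pax7 and Ets1 followed at -2.70 and -2.85. Sox9, which is used by crest and by neural progenitors alike, overlapped between gates (1541, 1863 and 1097 against 1594, 1408 and 1279), and its difference of 0.04 became -0.02 after quantile normalization.

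Of 16 genes of surface ectoderm and placodes 7 were called lower and 1 higher, with a median of -1.78. Cdh1, E-cadherin, measured 123, 159.7 and 178 in GFP-positive cells and 3047, 2485 and 2945 in GFP-negative cells, a difference of -4.20 (SE 0.29, adjusted p = 1.09e-09), and had been at 29448 ± 1041 (SD, n = 3) on day 3. Epcam, an epithelial surface protein, measured 141, 163 and 119 against 1387, 1146 and 1304 (-3.18), and the splicing regulator Esrp1 103, 91.7 and 96.9 against 756, 646 and 775 (-2.89). All of these are expressed by pluripotent cells too. Keratin 19, Krt19, was called at -3.39 and lost its call by a small margin without GFP-negative replicate 1, whereas Krt8 and Krt18, with differences of -1.81 and -1.04, were not called. Krt5 and Trp63, which define stratified epidermis, were below the filter with no value above 7.18. The gene called higher was Eya2, a phosphatase and transcriptional coactivator gene, at 1027, 966 and 941 against 384, 303 and 269.7. Its difference of 1.63 (SE 0.31, adjusted p = 6.58e-04) lost its call without any 1 library, with differences of 1.52 to 1.77.

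Of 7 lens genes tested, 1 was called higher and 1 lower, and the median was 1.12. In 6 every GFP-positive library was above every GFP-negative library, where 36.8% of all genes tested did not overlap, in either direction. Maf, a transcription factor of lens fibres that is used elsewhere too, was called higher at 1296, 1115 and 1428 against 282, 331 and 333, a difference of 2.01 (SE 0.31, adjusted p = 5.73e-05). Cryab, a small heat-shock crystallin expressed in many tissues, was called lower at -2.55 and lost that call without any 1 of the 6 libraries (differences -2.78 to -2.27). Foxe3 measured 50.5, 45.9 and 65.8 against 16.4, 19.6 and 15.4 without overlap, but with an adjusted p of 0.012 it was not called, and Pitx3 was under 10 in every library. Prox1, Mip and Cryba1 were not called either, at 0.94, 1.24 and 0.75. The defining crystallin Cryaa was listed at 0 in 5 of the 6 libraries and at 0.795 in the other.

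Of the 26 lists, pluripotency had the largest share of genes called: 18 of 20 were lower in GFP-positive cells and the median was -3.71. Pou5f1, the octamer-binding factor of pluripotent cells (chr17:35506018-35510772, plus strand), measured 63.7, 82.8 and 83.7 in GFP-positive and 1538, 1193 and 1094 in GFP-negative libraries, a difference of -4.03 (SE 0.18, adjusted p = 3.20e-12). Nanog measured 64.4, 78.6 and 50.9 against 949, 1131 and 888 and differed by -3.93 (SE 0.20, adjusted p = 1.25e-11). The widest difference was that of Fgf5, a growth factor of primed pluripotent cells, at 16.3, 7.99 and 9.55 against 342, 386 and 411, or -5.01 (SE 0.21, adjusted p = 1.05e-12). The naive-state gene Klf2 differed by -3.46, and Dppa2, Utf1 and Dppa5a, all of early embryonic cells, by -4.73, -4.31 and -4.12. Both gates were nonetheless far below unsorted day 3 cells, in which Pou5f1 was at 23213 ± 5027 and Utf1 at 15395 ± 3027 (SD, n = 3). The GFP-positive mean was 6.02% of the GFP-negative mean for Pou5f1, 6.53% for Nanog and 4.88% for Utf1. The 2 genes not called are also expressed outside pluripotent cells: Sall4 measured 4606, 4834 and 4856 against 6951, 5825 and 6054 and Lin28a 36435, 36843 and 38157 against 31359.6, 29009.7 and 28129.

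Germ cell genes were lower as well, with 6 of 10 called and a median of -2.01. Prdm1, a repressor used by primordial germ cells and by several other lineages, measured 12.6, 8.51 and 15.7 against 263, 199 and 248, a difference of -4.19 (SE 0.25, adjusted p = 2.00e-10). Prdm14, Dppa3 and Dazl were each under 10 in all GFP-positive libraries and between 30.8 and 94.4 in the GFP-negative libraries. Of these genes, Prdm14 and Dppa3 are expressed by mESCs too.

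Genes of the primitive streak and nascent mesoderm followed closely, with 13 of 16 called lower and a median of -3.31, and the count stayed at 13 when any 1 of the 6 libraries was left out. Brachyury, T, measured 69.3, 80.6 and 58.1 in GFP-positive cells and 1226, 875 and 1171 in GFP-negative cells, a difference of -3.95 (SE 0.29, adjusted p = 2.58e-09). Eomes and Mixl1, which act in mesendoderm, measured 40.7, 95.1 and 38.1 against 629, 921 and 975 and 3.64, 6.90 and 8.14 against 102, 166 and 127. The widest differences were those of the posterior homeobox genes Cdx2, -5.39 (SE 0.45, adjusted p = 1.82e-08) from 10.9, 25.6 and 9.05 against 733, 819 and 389.6, and Evx1, -5.27 (SE 0.48, adjusted p = 5.50e-08) from 5.22, 13.4 and 7.43 against 365, 379.8 and 309.5. Mesp1, of early mesoderm, differed by -4.35. In several of these genes GFP-positive replicate 2 was the highest of its gate, as with Cdx2 and Evx1, but it remained below every GFP-negative library.

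For the GFP-negative side the promoters that hold the letters of an octamer site (ATGCAAA, or TTTGCAT on the other strand) and a GATA site (AGATAA, or TTATCT) were looked up because Pou5f1, Gata4 and Gata6, which bind such sites, were called lower in GFP-positive cells. Gata1 was not called, at 0.28. Among called list genes with a match, Cdx2 had the widest difference for the octamer letters and Hand2 for the GATA letters. The runs cover the 250 bases before the start, from RefSeq for GRCm38.p6, at chr5:147307250-147307499 on the minus strand for Cdx2 and chr8:57320733-57320982 on the plus strand for Hand2, each read 5′ to 3′ on the gene's strand with the match in capitals.
Cdx2: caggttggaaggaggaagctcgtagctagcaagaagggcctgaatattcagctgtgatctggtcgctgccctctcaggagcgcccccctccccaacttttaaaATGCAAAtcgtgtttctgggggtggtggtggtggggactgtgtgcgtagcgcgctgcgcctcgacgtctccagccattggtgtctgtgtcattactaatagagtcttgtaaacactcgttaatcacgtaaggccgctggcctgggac
Hand2: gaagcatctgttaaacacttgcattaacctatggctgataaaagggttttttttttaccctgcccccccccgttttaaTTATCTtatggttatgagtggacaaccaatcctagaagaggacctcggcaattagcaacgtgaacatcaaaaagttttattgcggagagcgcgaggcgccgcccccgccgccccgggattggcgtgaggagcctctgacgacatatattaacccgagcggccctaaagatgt
The matches begin 147 and 172 bases before the start. The octamer letters were in 49 of 810 promoters of genes called lower (6.05%), in 4 of 78 of genes called higher (5.13%) and in 1355 of all 32851 (4.12%). For the GATA letters the shares were 81 of 810 (10.0%), 5 of 78 (6.41%) and 3281 of all (9.99%). These shares are descriptions, with no test.

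Of 17 endoderm genes 13 were called lower, with a median of -3.60. In all 17 every GFP-positive library was below every GFP-negative library, where 36.8% of all genes tested did not overlap, in either direction. Sox17, a definitive and extraembryonic endoderm factor, measured 30.6, 46.5 and 33.9 against 1041, 549 and 942, a difference of -4.44 (SE 0.44, adjusted p = 1.74e-07). Foxa2, which opens chromatin in endoderm and midline, measured 50.8, 40.6 and 50.4 against 1090.0, 607 and 861 (-4.11), and Foxa1 27.2, 33.2 and 27.97 against 353, 249.9 and 319 (-3.33). Gata6 and the endocytic receptor gene Cubn differed by -4.26 and -4.18. The carrier genes Apob, which was called, and Ttr and Rbp4, which were not, differed by -3.60, -3.90 and -1.43. Alb was below the filter with no value above 0.984, and Afp reached 23.5 in GFP-negative replicate 3 with at most 0.786 in GFP-positive libraries. Of the parietal endoderm list 4 of 8 were called lower (median -1.97), all of them matrix or receptor genes that other cells use too. Lama1 measured 2108, 1886 and 2413 against 12990.3, 9665 and 13950.1, Col4a1 8692, 9556 and 8029 against 42668, 26679 and 34979, and Col4a2 and Pth1r differed by -1.97 and -2.71. Sparc and Lamb1 were high in every library and reached -1.18 and -0.69, short of the fold threshold.

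The endothelial list had 11 of 17 genes called lower and a median of -3.09. Cdh5, the cadherin of endothelial junctions, measured 5.45, 6.84 and 8.14 against 222, 169.7 and 109.6, a difference of -4.38 (SE 0.48, adjusted p = 7.20e-07). Tal1, a factor of blood and endothelial precursors, measured 12.8, 21.4 and 13.3 against 309, 379 and 278 (-4.28), the junction gene Cldn5 2.74, 0.998 and 3.62 against 89.7, 44.6 and 68.8 (-4.34), and Sox18 5.48, 1.99 and 6.33 against 106, 94.9 and 79.5 (-4.17). Kdr, the VEGF receptor of mesoderm precursors and of retinal progenitors, was high in both gates, at 772, 668 and 638 against 1087, 1480.5 and 953, and not called. Pecam1, an adhesion gene of endothelium and of mESCs, was decided by 1 library: GFP-positive replicate 2 measured 178, within the GFP-negative range, and without it the difference of -1.74 became -2.39 and was called (adjusted p = 4.20e-06).

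Of 8 blood genes tested 1 was called lower, and the median was -1.93. Runx1, which starts definitive blood formation, measured 19.4, 14.03 and 24.5 against 75.7, 132 and 95.9, a difference of -2.33 (SE 0.27, adjusted p = 1.66e-06). The globin genes belonged to 1 library. Hbb-bh1, an embryonic beta-like globin, measured 1122 in GFP-negative replicate 2, was listed at 0 in 4 of the other 5 libraries, and reached 9.25 in GFP-positive replicate 2. Hba-x and Hbb-y, also embryonic globins, measured 319 and 43.5 in that library with at most 0.882 elsewhere. None of these 3 passed the filter. Hba-a1, which did, measured 6.73, 177 and 1.60 in GFP-negative and 0, 2.06 and 0 in GFP-positive cells, with a difference of -3.40 that was not called. Gata1 and Klf1, the factors that drive globin genes, were not called: Gata1 measured 45.9, 36.1 and 51.98 in GFP-positive and 37.3, 45.5 and 28.03 in GFP-negative cells, which overlapped, and Klf1 6.39, 5.97 and 10.9 against 20.2, 27.9 and 16.4.

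Of 12 cardiac and smooth muscle genes 4 were called lower (median -1.39), and 2 when only the day 5 libraries were fitted. Hand1, a factor of extraembryonic mesoderm, heart and trophoblast, measured 3243, 1871 and 343 in GFP-negative replicates 1, 2 and 3 and 35.1, 47.3 and 11.002 in GFP-positive cells, a difference of -5.54 (SE 0.85, adjusted p = 5.64e-05). Its GFP-negative level varied several fold between replicates, as did that of Hand2, which measured 7.28, 25.6 and 3.62 against 572, 910.5 and 232 (-5.62). Tnnt2, which encodes a cardiac troponin, measured 0.606, 0.370 and 1.50 against 36.02, 33.1 and 19.7 (-4.07), and Myl7 differed by -1.53, a call that was lost without GFP-positive replicate 1 or 2 or GFP-negative replicate 1 or 3 (adjusted p up to 0.00264). Nkx2-5 and Myh6 were not called, at -1.94 and -1.03, and neither were Mef2c, Acta2 and Tagln, whose differences had the opposite sign, at 1.08, 0.23 and 0.20. Of 15 mesenchymal genes 8 were called lower (median -2.46). Pdgfra, a growth factor receptor of mesenchyme and primitive endoderm, measured 655, 609 and 524 against 2743, 2502 and 2491, a difference of -2.12 (SE 0.24, adjusted p = 1.17e-06). Foxc2, Foxc1, Col3a1 and Twist2 differed by -4.17, -3.45, -3.22 and -3.21, and the last of these lost its call without GFP-positive replicate 2 or 3 or GFP-negative replicate 1 or 2 (adjusted p up to 0.00606), as did Col3a1 without GFP-negative replicate 3 (adjusted p = 0.00104). Col1a1 measured 1812, 791 and 355 in GFP-negative replicates and 123, 193 and 132 in GFP-positive ones. Its difference of -2.44 was not called (adjusted p = 0.00116) and was called without GFP-negative replicate 3, at -3.02. Pdgfrb differed by -1.25, under the fold threshold, and Col1a2 by 0.66 with the opposite sign and no call.

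The trophoblast list had 6 of 10 genes called lower (median -2.25), 3 of which, Hand1, Cdx2 and Eomes, are also in the cardiac or primitive streak list. The count was 2 when only the day 5 libraries were fitted, 4 after quantile normalization, centring, with 0.5 added or with no filter, and 4 or 5 without any 1 of the 6 libraries. Krt7, a keratin of trophoblast and other simple epithelia, measured 33.01, 10.8 and 13.2 against 198, 83.3 and 205 (-3.08). Ascl2 differed by -1.76 and lost its call without any 1 of the 6 libraries (differences -1.84 to -1.63). Elf5, which defines trophoblast stem cells, measured 7.63, 9.47 and 6.28 against 26.1, 11.5 and 13.9 and was not called, and Tpbpa, of the mature placenta, was listed at 0 in 4 of the 6 libraries.

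**Figure D3:**
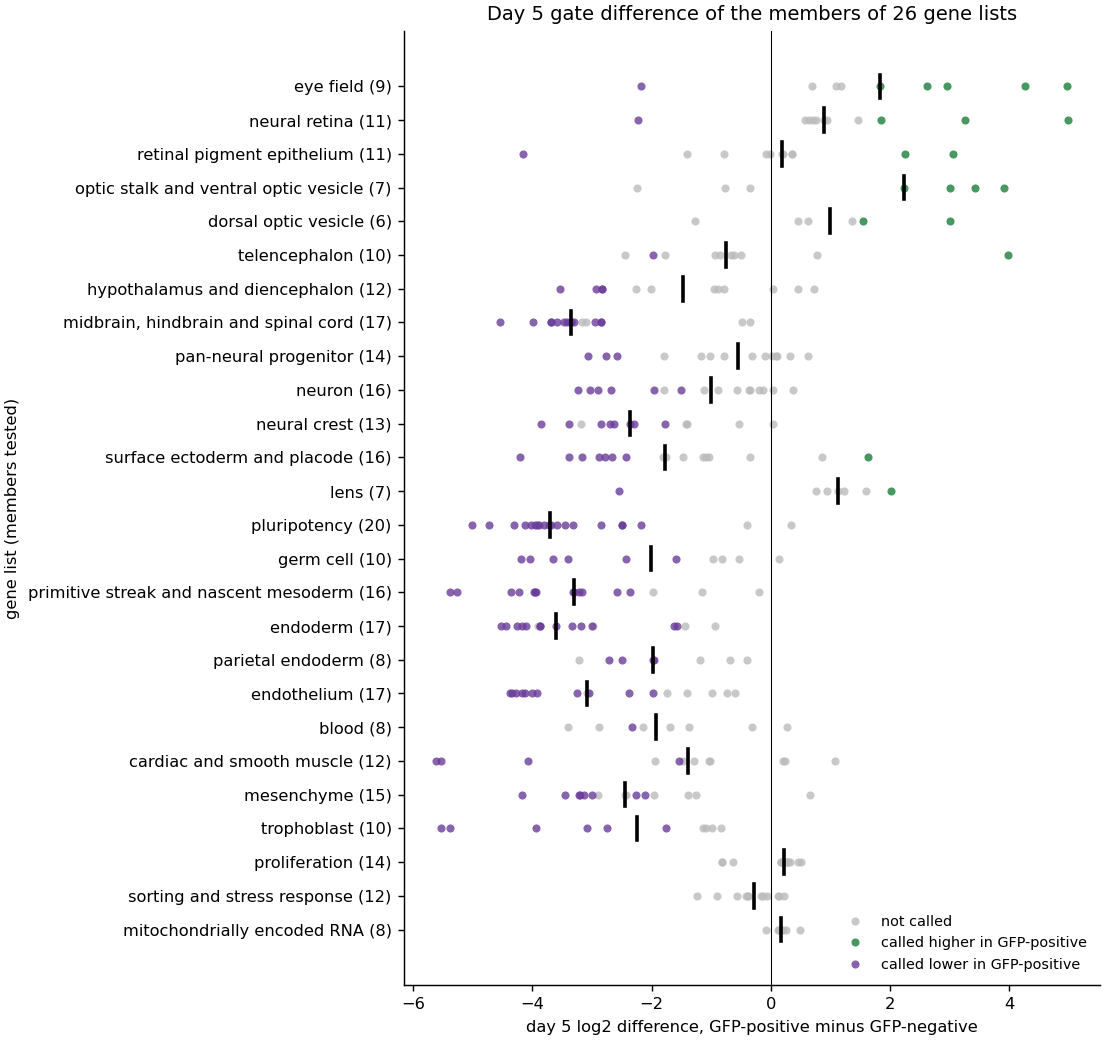
Log2 difference between the day 5 gates for the tested members of the 26 gene lists, with a point for each gene, coloured when it was called, and a black bar at the median of each list. Eye field (Rax included), optic stalk and lens medians lie to the right of 0, the pluripotency, primitive streak, endoderm, endothelium and midbrain to spinal cord medians lie left of -3, and the last 3 lists lie near 0.

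Across the 310 distinct list genes tested, 19 (6.13%) were called higher and 125 (40.3%) lower, where 0.400% and 4.61% of all genes tested were called. The lists were chosen with earlier results of these data known, so their larger shares are not an independent result. Lists of general state held no called gene: none of 14 proliferation genes, 12 sorting and stress genes or 8 mitochondrially encoded RNAs was called by limma, with an unadjusted p under 0.05 for 4 proliferation genes higher and 2 lower, for 4 stress genes lower and for 0 mitochondrial RNAs, and their medians were 0.22, -0.28 and 0.16. The proliferation marker Mki67 measured 21557, 24989 and 20808 against 17609, 19182 and 18846, Top2a 32573, 31435 and 30941 against 23935, 26853 and 25398 and Ccnb1 11543, 10588 and 11306 against 9363, 10385 and 9876. Immediate early genes varied by replicate. Fos measured 1371, 371 and 152 in GFP-positive and 668, 364 and 203 in GFP-negative replicates, Fosb 792, 198 and 46.5 and 487, 199 and 108, and Jun 2359, 1154 and 779.8 and 2024, 1172 and 1033, highest in replicate 1 of both gates. The mitochondrial genes mt-Nd1, mt-Nd2 and mt-Co1 were lowest in replicate 1 of both gates, with mt-Nd1 at 69521, 110779 and 153437 in GFP-positive and 58009.5, 134872 and 105436 in GFP-negative libraries. What these values contribute to the gate differences was not tested.

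Outside the lists, the called genes with the widest rise included noncoding transcripts and a transporter. A830092H15Rik, a transcript annotated as antisense, measured 272, 307 and 243 in GFP-positive cells and 3.50, 5.75 and 7.63 in GFP-negative cells and had the widest rise called, 5.42 (SE 0.48, adjusted p = 4.17e-08). Slc38a8, an amino acid transporter gene expressed in the eye, measured 739, 689.6 and 884 against 19.8, 19.8 and 46.1, a difference of 4.81 (SE 0.37, adjusted p = 5.57e-09). Raxos1, annotated antisense to Rax, differed by 4.24, and because the sources do not state strand-specific counting its reads and those of Rax cannot be told apart with certainty. E130114P18Rik and 3110039M20Rik, both low, differed by 3.71 and 3.70, and the first lost its call without any 1 of the 3 GFP-negative libraries. Mab21l1, Six6, Rax and Vax2, described above, were also among the 10 widest rises called. Called genes with large normalized counts, which depend on gene length too, included Igfbp5, an insulin-like growth factor binding protein, at 34079.7, 29014 and 27058 against 8929, 6029 and 6629.9 (2.08), and Shisa2, an antagonist of Wnt and FGF signalling, at 25664, 23092 and 29039 against 2418, 2448 and 2317 (3.43).

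The 10 widest falls called had at most 47.3 normalized counts in any GFP-positive library. Hoxd1 measured 0, 3.96 and 0 in GFP-positive and 115, 138 and 44.3 in GFP-negative libraries, a fitted difference of -5.72 (SE 0.65, adjusted p = 1.13e-06), and Hoxd9 4.55, 3.94 and 0 against 193, 234 and 22.99 (-5.10), with GFP-negative replicate 3 well below the other two. Hoxd9 lost its call without GFP-positive replicate 3 or GFP-negative replicate 1 or 2. Klhl6, a gene of lymphoid and endothelial cells, measured 3.68, 4.14 and 5.70 against 238, 351 and 273 (-5.71). Ctse, which encodes an aspartic protease, and the X-linked DXBay18 were listed at 0 in all GFP-positive libraries and measured 45.05, 56.5 and 25.5 and 58.8, 50.7 and 42.9 in GFP-negative ones, and the call of DXBay18 was lost without any 1 of the 6 libraries. Grap, an adaptor gene of lymphoid cells, measured 0, 0 and 0.752 against 38.4, 94.8 and 26.6. Hand1, Hand2, Cdx2 and Evx1 complete the 10. Called genes with large normalized counts on this side included the imprinted genes Peg10 (13461, 11883 and 14141 against 44626, 50459.9 and 50859, -1.89) and H19 (5805, 7074 and 6219 against 42485, 29872 and 25439, -2.33), and the basement membrane genes Col4a1, Col4a2 and Lamc1. The last of these differed by -1.57 and fell to -1.49, under the fold threshold, without GFP-negative replicate 1.

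Of the 968 genes called lower, 462 (47.7%) were highest in GFP-negative replicate 1, where 43.9% of all 21005 genes tested were highest in that library among the 3. Of the 84 genes called higher, 46 (54.8%) were highest in GFP-positive replicate 3, against 35.1% of all genes tested. These shares are descriptions of the libraries, and the difference between called and other genes was not tested.

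For nearly all called genes the direction was the same a day earlier, as measured in separate libraries. Of the 968 genes called lower on day 5, 961 had the same sign on day 4 and 560 (57.9%) were called lower there, among 763 (3.63%) of all genes called lower on day 4. Of the 84 called higher, 79 had the same sign and 25 (29.8%) were called higher on day 4, among 69 (0.328%) of all genes. The median difference of the 968 was -2.17 on day 4 against -2.79 on day 5, and that of the 84 was 1.25 against 2.43, where the day 5 values chose the genes. By list, the neural retina and optic stalk lists each had 0 genes called by limma on day 4, with an unadjusted p under 0.05 for 7 neural retina genes higher and 1 lower and for 3 optic stalk genes higher and 1 lower, against 3 and 4 called higher on day 5, the endothelial list 5 against 11 called lower, and pluripotency 18 on both days. Whether these counts differ between days was not tested as such.

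The change of the gate difference from day 4 to day 5 was tested gene by gene as an interaction and called for 23 genes, 16 higher on day 5 (0.0762%) and 7 lower (0.0333%). These counts were 3 to 7 and 5 to 7 when 1 of the 12 day 4 and day 5 libraries was left out, and 26 and 25 without replicate 1 of day 0. Tbx2 had the largest change: on day 4 it was at 13.4 ± 3.79 for GFP-positive cells against 55.9 ± 26.1 (SD, n = 3), on day 5 at 530.2 ± 71.6 and 68.2 ± 25.2, a change of 4.93 (SE 0.62, adjusted p = 2.37e-04). Mitf changed by 2.61 (SE 0.31, adjusted p = 9.64e-05) and Aldh1a3, which had been at 78.6 ± 12.3 and 70.99 ± 7.57 on day 4, by 2.87 (SE 0.42, adjusted p = 8.50e-04). All 3 were called higher in GFP-positive cells on day 5 than in those of day 4, at 5.24, 3.02 and 3.48, as were 0.595% of all genes. Cyp4v3, a fatty acid hydroxylase gene, changed by 4.09, Vax2os, an antisense transcript at Vax2, by 3.66, and Fam83f and Rerg by 3.51 and 3.04. For Vax2os, Fam83f and Rerg the gate difference had been negative on day 4, and none of these 3 was called on day 5. Shisa2, high in GFP-positive cells on both days, changed by 1.89 while its GFP-negative level went from 8627 ± 513 to 2394 ± 68.8.

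On the other side the endothelial genes Sox18 and Tie1 changed most. Sox18 was at 9.27 ± 1.28 in GFP-negative cells on day 4 and at 93.5 ± 13.3 on day 5, while GFP-positive cells were at 8.70 ± 2.51 and 4.60 ± 2.30 (SD, n = 3). Its change was -4.06 (SE 0.47, adjusted p = 9.64e-05), and that of Tie1, a receptor of endothelial cells, -3.43 (SE 0.38, adjusted p = 6.52e-05). Prdm1 changed by -3.32 (SE 0.36, adjusted p = 4.34e-05), with the fall on the GFP-positive side, from 113 ± 22.8 to 12.3 ± 3.59. Sox21, a neural progenitor factor, changed sides, from 3981 ± 194 in GFP-positive against 1539 ± 207 in GFP-negative cells on day 4 to 2349.6 ± 217 against 4074 ± 391 on day 5, a change of -2.17 (SE 0.23, adjusted p = 4.34e-05), although its day 5 difference of -0.79 was not called. Chst15, which encodes a sulfotransferase, changed by -2.05. Sox18, Tie1, Prdm1, Sox21, Chst15, Mitf and Rerg kept their call when any 1 of the 12 day 4 and day 5 libraries was left out. Tbx2 kept it in 9 of the 12 omissions, Fam83f in 4, Vax2os in 2, Aldh1a3 in 1, and Cyp4v3 and Shisa2 in 0, with the same sign each time.

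**Figure D4:**
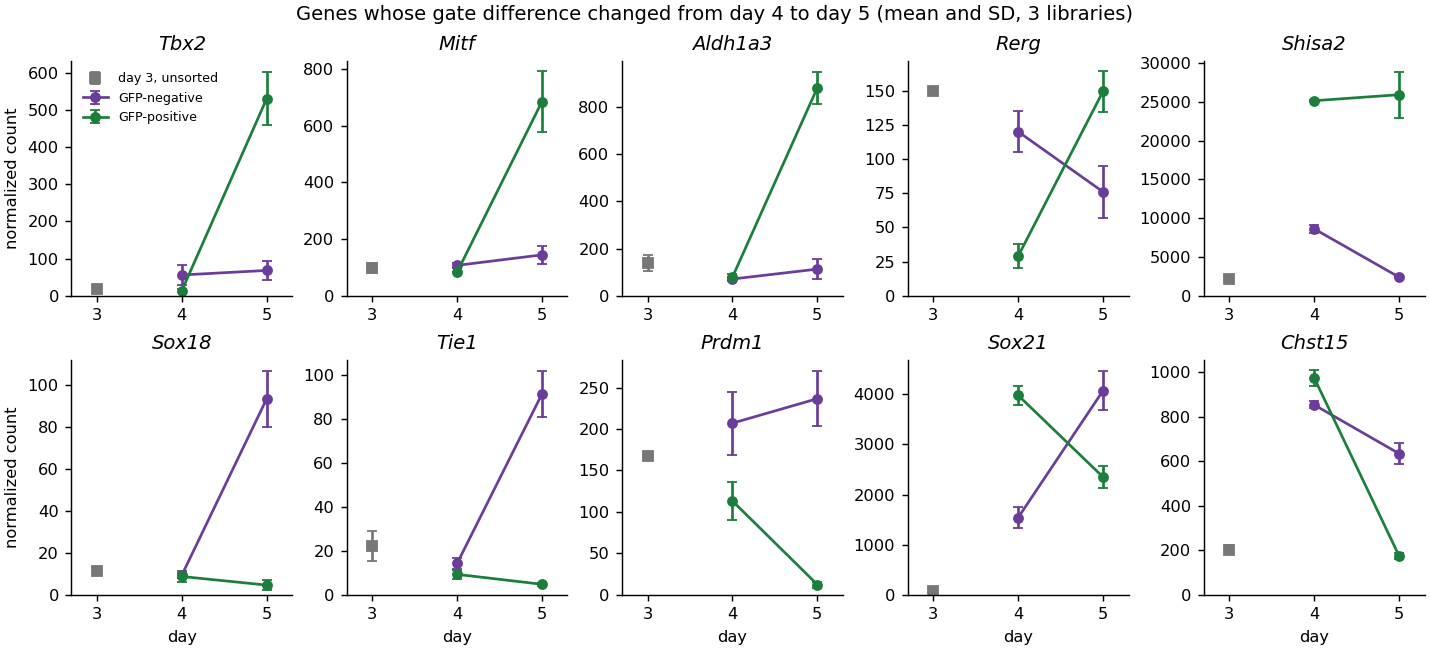
Normalized counts of 10 genes with a called change of the gate difference, by day, as mean with SD of 3 libraries (grey, unsorted day 3 cells; purple, GFP-negative; green, GFP-positive), each on its own linear axis from 0. In the upper row the green line ends above the purple line on day 5, and in the lower row below it.

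Set beside unsorted day 3 cells, the gates differed in where they stood, and because both contrasts use the same day 3 libraries and share the day 5 libraries with the gate comparison only values are given. The median of the eye field list, Rax included, was 6.25 above day 3 in GFP-positive cells and 1.98 above it in GFP-negative cells. For pluripotency the medians were -5.55 and -1.85, so both gates had moved down. For midbrain, hindbrain and spinal cord genes they were 0.49 and 3.43, for neural crest 0.89 and 2.50, and for mesenchyme 0.64 and 3.08, with the larger move in GFP-negative cells. Primitive streak genes were at -3.37 in GFP-positive cells and -0.05 in GFP-negative cells. Telencephalic genes had moved up in both, by a median of 2.27 in GFP-positive cells and 2.88 in GFP-negative cells, and hypothalamic and diencephalic genes by 2.23 and 3.87. The 968 genes as a whole were at a median of -2.98 in GFP-positive cells and -0.46 in GFP-negative cells relative to day 3, and their unsorted mean was highest on day 0 for 426 genes, day 1 for 226, day 2 for 128 and day 3 for 188. Over all genes tested day 0 was the highest for 34.2% and day 3 for 30.9%.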

How the data were processed

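The authors pseudo-aligned poly(A) RNA-seq reads with kallisto 0.43.1 to Ensembl coding and non-coding transcripts and deposited a table of 49705 genes with mm10 coordinates, in which gene estimates had been scaled by DESeq2 normalization factors. These deposited normalized counts are treated as a signal, not as raw counts: for low genes 45.4% to 76.4% of values per library lay within 0.1 of a whole read, too few for whole reads to be recovered, and count models were left out. The steps in the values correspond to about 37000000 to 54700000 reads per library. The deposited columns of the authors' own calls were not used. Strand-specific counting is not given in the sources used here, so antisense transcripts and genes with near-identical copies are uncertain.

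Genes with at least 10 in at least 3 of 24 libraries (21005) were tested on log2(normalized count + 1) with limma 3.58.1 in R 4.3.3, in 1 linear model of 8 groups with moderated variances that followed the mean, and p-values of each contrast were adjusted by Benjamini-Hochberg. Genes were called below an adjusted p of 0.001 with differences above 1.5. These are the study's cut-off values, which it applied to shrunken fold changes and which were applied here to unshrunken differences from limma. The model was run on simulated data with normal noise, and differences were planted only in genes of higher level. Of 100 planted differences of 2 it called 94 between the day 5 gates and 75 as a change between days. For differences of 3 these were 100 and 93. Genes with low values were not covered. p-values measure the spread between replicates over all 8 groups, and not that of the day 5 libraries alone. With only the day 5 libraries filtered and fitted, the calls were 104 higher and 646 lower. Tables and figures used Python 3.11.15, numpy 2.4.6, pandas 2.3.3 and matplotlib 3.10.9, and promoters came from RefSeq for GRCm38.p6.

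The members and lists were chosen with earlier results of these data known. Genes were named by rule: in each list the first 3 tested and up to 4 called with the largest difference in each direction, the 10 largest called rises and falls, the 5 called with the highest mean normalized count in each direction, and the 5 largest called changes of the gate difference in each direction. Acta2, Afp, Alb, Apob, Atoh7, Col1a2, Cryaa, Cryba1, Cyp1b1, Dct, Gap43, Gata4, Hba-x, Hbb-bh1, Hbb-y, Hes5, Hesx1, Isl1, Krt5, Lin28a, Mef2c, Mip, Nr2e1, Ntn1, Otx2, Prox1, Rbp4, Rpe65, Sall4, Sfrp1, Sfrp2, Smoc1, Stmn2, Tagln, Tpbpa, Trp63, Ttr and Zic1 were added after their values were seen. Part of what this rule picked is left out here. Alternatives were the added constant, the filter, the scaling, the variance trend, the libraries in the fit, a replicate block, the thresholds and each library left out.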

Additional observations from a re-analysis of the deposited data

Results flagged for a closer look

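In 13 genes the difference between the gates on day 5 differed from that on day 4 by the interaction test, and the values are differences of log2 differences, day 5 minus day 4. Those that moved towards GFP-positive cells were Tbx2 by 4.93, Cyp4v3 by 4.09, Vax2os by 3.66, Fam83f by 3.51, Rerg by 3.04, Aldh1a3 by 2.87, Mitf by 2.61 and Shisa2 by 1.89. Those that moved towards GFP-negative cells were Sox18 with -4.06, Tie1 with -3.43, Prdm1 with -3.32, Sox21 with -2.17 and Chst15 with -2.05. Of the 13, Cyp4v3 measured 112, 139.9 and 153 in GFP-positive and 33.6, 26.5 and 24.7 in GFP-negative libraries on day 5, and its day 5 call was lost without any 1 of these 6 libraries (differences 2.12 to 2.34). Fam83f and Vax2os were low on both days, with day 5 means of 21.4 and 35.5 in GFP-positive cells. No gene was flagged for a single library far from its group, because groups of 3 are not tested for that.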

How the results depend on the processing

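Against 84 genes higher and 968 lower, quantile normalization gave 569 lower (557 shared), and the limma treat test against the fold threshold gave 13 and 158. An adjusted p under 0.05 gave 794 and 2576 with no fold threshold and 248 and 1980 with a difference above 1, and the list genes called higher were then 30 instead of 19 with no fold threshold. Leaving out 1 day 5 library gave 58 to 66 higher and 739 to 835 lower. Against 16 and 7 changes of the gate difference, higher calls were 8 with no filter on low values, 10 with no variance trend, 26 without replicate 1 of day 0 and 3 to 7 without 1 of the 12 libraries, and lower calls were 15 with 5 added, 25 with only the libraries compared, 25 without replicate 1 of day 0 and 5 to 7 without 1 of the 12. They were 0 and 0 with treat, 111 and 120 at an adjusted p under 0.05 with no fold threshold, and 85 and 105 with a difference above 1. In all of these the cause was not tested.

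The replicate numbers were checked as pairs: deviations of same-numbered day 5 libraries correlated at 0.0079, -0.075 and 0.1469, and not every library correlated best with its own number, so whether the numbers mark pairs of the same culture was not determined. The methods describe both gates as sorted from the samples of a day, but the main model did not pair them. The replicate block joined equal numbers across all days, so it is no check of pairs on day 5 alone. With the block the calls were 81 higher and 920 lower, and 10 and 5 for the change of the gate difference.

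Of 1719 values of the 159 named genes under the other settings, 1637 kept direction and side of the thresholds, 66 lost a call, 11 gained one and 5 changed sign. With 1 day 5 library left out, 827 of 945 were unchanged in this sense, 98 lost a call, 2 gained one and 18 changed sign. The sign changes were in uncalled genes. Quantile normalization gave Fosb 0.12, Sox2 -0.0111 and Sox9 -0.0161, and centring gave Fosb 0.0044 and Jun 0.10. Leaving out 1 library gave Fam83f -0.11 to 0.60, Fos -0.62 to 0.96, Fosb -1.18 to 0.85, Jun -0.51 to 0.29, Nkx2-1 -0.23 to 0.34, Sox9 -0.13 to 0.25, Tyr -0.36 to 0.53, mt-Nd1 -0.17 to 0.48 and mt-Nd2 -0.23 to 0.48. The count model was not run because whole reads were not recovered. Normalized counts near the limit of 10 rest on few reads, so low genes such as Bcl11b, Vax2os and the Hox genes are the least precise.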

Other observations

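The next genes were picked one by one after their values were seen, from no list, and stand for no group. Fzd5, a Wnt receptor gene of the eye field, measured 10859.5, 8133 and 10684 normalized counts in GFP-positive and 1114, 1143 and 1099 in GFP-negative replicates, a difference of 3.13 (SE 0.23, adjusted p = 3.12e-09) by limma with Benjamini-Hochberg adjustment. Fzd8 and Fzd1, its relatives, were called higher too, at 1.85 and 1.83, as were Lgr4, an R-spondin receptor gene, at 1.52 and Dkk3, of the Dickkopf family, at 1.56. Fzd10 went the other way, at 204, 262 and 287 against 1548, 1743 and 1617 (-2.71). The gates did not overlap in any of these 6 genes.

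Other called genes of the GFP-positive side, likewise chosen after their values were seen, were Meis1, a homeobox cofactor of the early eye, at 2604, 2472 and 2778 against 493, 531 and 521 (2.34), the homeobox gene Gbx1 at 127, 132 and 157 against 13.4, 12.1 and 18.9 (3.16), and Grem1, a secreted BMP antagonist, at 1305, 1097 and 1471 against 145, 297 and 270.2 (2.49).

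Some wide differences without overlap were not called. Kcnj13, a potassium channel gene of pigment epithelium, measured 65.5, 56.3 and 64.8 against 2.19, 4.68 and 1.85 (adjusted p = 0.00189), Edn1, which encodes endothelin 1, 2944, 2940.1 and 2858 against 438, 500.2 and 493 (adjusted p = 0.00155), and Thrb, a thyroid hormone receptor gene, 347, 319 and 309.7 against 28.3, 26.8 and 51.3 (adjusted p = 0.00437).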
